A study of Mus musculus with 11 samples.

Results

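The regions described here are the ATAC-seq peaks of mouse CD4 T cells whose signal was highest in naive cells. They were chosen by measured values. For each peak the mean of log2(signal + 1) was taken over the libraries of each group, and a peak was kept where the naive mean exceeded the mean of each of the 3 other groups by at least 1, a difference of 1 on the log2 scale being a doubling of the signal. This kept 1517 of 38509 peaks, called members below. ATAC-seq inserts sequencing adapters into accessible DNA with a transposase, so the reads over a region measure how open its chromatin is. The cells came from wildtype C57BL/6 Foxp3-GFP mice with a polyclonal T cell repertoire, were taken from mixed spleen and lymph node, and were sorted fresh and untreated. The groups were anergic cells (CD44 high, FOXP3 negative, CD73 high, FR4 high, NRP1 positive, n = 3), Teff cells (CD44 high, FOXP3 negative, CD73 low, FR4 low, n = 3), Treg cells (FOXP3 positive, CD25 positive, n = 3) and naive cells (CD44 low, n = 2). The groups are defined by these surface and reporter markers alone. Whether libraries of a group came from separate mice is not given in the labels, and p-values below refer to the spread between libraries, which may be technical. Because the naive libraries chose the members, differences from naive are given as a description with no test, and the tests below compare the 3 other groups with each other.

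Naive CD4 T cells circulate between blood and lymphoid organs and have not yet met their antigen. Their identity rests on transcription factors such as TCF1 (encoded by Tcf7), LEF1, SATB1, FOXP1 and BACH2, which keep cells quiescent or hold back effector genes, and on homing receptors such as CCR7 and S1PR1. Antigen recognition switches on factors of the AP-1 and NFAT families, and many distal regulatory elements of the resting state then lose accessibility. Anergic cells are antigen-experienced cells that no longer respond fully to stimulation, and Treg cells restrain other T cells under the control of FOXP3.

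To show what members look like, the central 200 bases of 6 of them are printed, from genes of the naive program on 3 lists: transcription factors (Lef1, Satb1), surface and homing receptors (Cxcr4, Ccr7) and other genes of naive and quiescent cells (Rapgef4, Dapl1). The sequences are the plus strand of GRCm38/mm10 (RefSeq). The windows are chr3:131167781-131167980 for Lef1, chr17:51800331-51800530 for Satb1, chr1:128602602-128602801 for Cxcr4, chr11:99136474-99136673 for Ccr7, chr2:72140563-72140762 for Rapgef4 and chr2:59527763-59527962 for Dapl1. Capitals mark exact matches, on either strand, to the TCF/LEF letters ATCAAAG or AACAAAG, the ETS letters ACNGGAAG (N any base) or the RUNX letters TGTGGTT.
Lef1: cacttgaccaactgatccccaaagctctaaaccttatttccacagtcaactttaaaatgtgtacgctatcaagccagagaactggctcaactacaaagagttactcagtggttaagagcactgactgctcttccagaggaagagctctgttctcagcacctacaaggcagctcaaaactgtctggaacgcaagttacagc
Satb1: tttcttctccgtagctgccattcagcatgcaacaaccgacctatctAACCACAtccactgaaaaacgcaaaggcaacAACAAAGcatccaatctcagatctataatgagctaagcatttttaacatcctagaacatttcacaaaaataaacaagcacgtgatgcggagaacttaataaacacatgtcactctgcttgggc
Cxcr4: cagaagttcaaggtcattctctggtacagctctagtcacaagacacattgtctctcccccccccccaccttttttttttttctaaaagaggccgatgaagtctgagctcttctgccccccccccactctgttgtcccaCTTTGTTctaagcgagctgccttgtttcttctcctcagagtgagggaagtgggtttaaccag
Ccr7: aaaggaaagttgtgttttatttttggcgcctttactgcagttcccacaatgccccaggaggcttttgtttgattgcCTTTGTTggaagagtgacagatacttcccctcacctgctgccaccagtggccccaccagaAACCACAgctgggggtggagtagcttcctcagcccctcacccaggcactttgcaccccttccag
Rapgef4: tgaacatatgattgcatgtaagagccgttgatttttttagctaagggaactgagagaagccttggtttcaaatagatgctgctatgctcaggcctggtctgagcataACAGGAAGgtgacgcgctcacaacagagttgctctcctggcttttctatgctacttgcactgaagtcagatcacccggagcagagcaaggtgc
Dapl1: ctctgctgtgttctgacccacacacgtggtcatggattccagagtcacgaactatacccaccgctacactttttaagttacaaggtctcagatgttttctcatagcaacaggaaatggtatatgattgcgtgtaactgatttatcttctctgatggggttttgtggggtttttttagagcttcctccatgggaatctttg
The Satb1 and Ccr7 windows each hold 1 TCF/LEF and 1 RUNX match, the Cxcr4 window holds 1 TCF/LEF match and the Rapgef4 window 1 ETS match. The Lef1 and Dapl1 windows hold none of these letters. The Rapgef4 peak is 109 bases wide, so its window reaches past the peak on both sides. The signal of each of these peaks is given with its gene below.

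The deposited signal of a peak is its read count times a library factor. A read was worth 0.527 to 2.13 units, and libraries held 14.7 to 68.8 M reads in peaks. Over the members, the median signal was 59.7, 55.4 and 39.6 units in the anergic libraries. It was 67.8, 68.5 and 81.7 units in the Teff libraries and 73.2, 85.1 and 68.4 units in the Treg libraries, against 262 and 231 units in the naive libraries. The median over all peaks lay between 208 and 225 units in every library. Members were thus peaks of about average height in naive cells and low peaks in the other cells, with anergic replicate 3 the lowest. The members held 0.325% to 0.445% of the reads in peaks in anergic libraries, 0.532% to 0.578% in Teff and 0.533% to 0.652% in Treg libraries, against 1.79% and 1.52% in naive libraries. Within each of the 3 other groups the library with the fewest reads in peaks had the highest member median: anergic replicate 1 (21.5 M reads), Teff replicate 3 (20.9 M) and Treg replicate 2 (14.7 M). The part of depth in the members' levels was not tested.

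**Figure D1:**
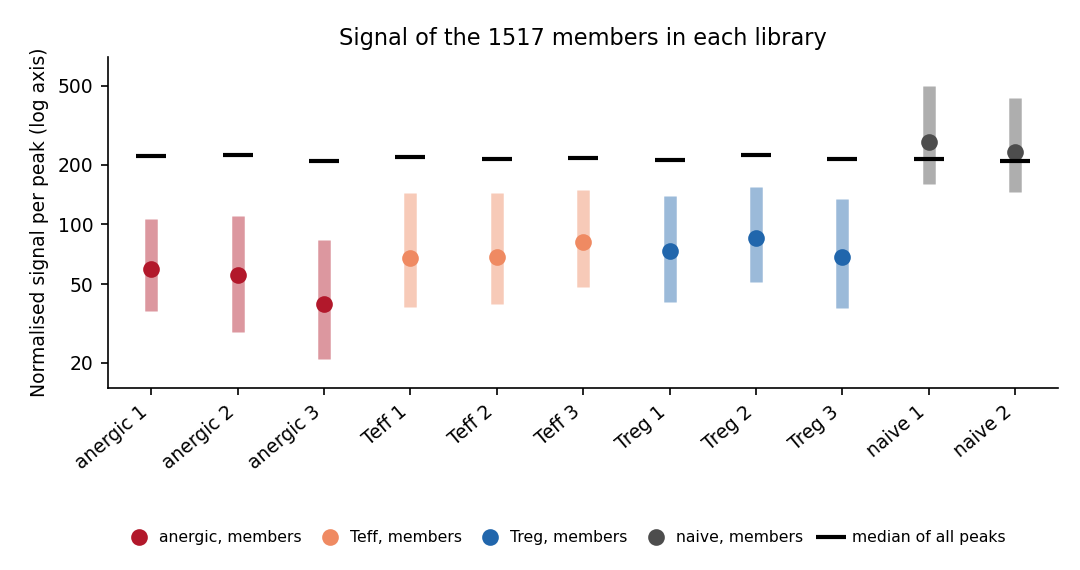
Normalised signal of the 1517 members in each of the 11 libraries, on a log axis. Points are medians over members, bars run between the quartiles, and black dashes are the median of all peaks in that library. Member medians lie between 39.6 and 85.1 units in the 9 anergic, Teff and Treg libraries and at 262 and 231 units in the naive libraries.

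Members lay furthest under naive in anergic cells. The median difference in mean log2(signal + 1) was -2.29 for anergic minus naive, -1.68 for Teff minus naive and -1.62 for Treg minus naive, where all peaks had medians of -0.04, -0.03 and -0.04. Taking for each peak the group closest to naive, the median difference was -1.36 (quartiles -1.74 and -1.15, lowest -3.91), and 585 members lay at least 1.5, 225 at least 2 and 19 at least 3 log2 units under naive. In 1512 members both naive libraries were above all 9 other libraries. The rule chose members on these same libraries, so this count largely follows from the choice, and it was not made over all peaks. The name "open only in naive cells" held in part. In 838 members (55.2%) the means of all 3 other groups were under the first quartile of that group's own peaks. In 267 members (17.6%) at least 1 other group stayed above its own median peak. In 114 (7.51%) all 3 did, so these 114 are accessible in every group and more so in naive cells. These shares were not counted over all peaks. At the limit of the rule, peaks near Neto2 (closest group minus naive -1.0001) and Ccdc88b (-1.0011) were just inside, and peaks near Shisa5 (-0.9999) and Selenot (-0.9998) just outside.

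**Figure D2:**
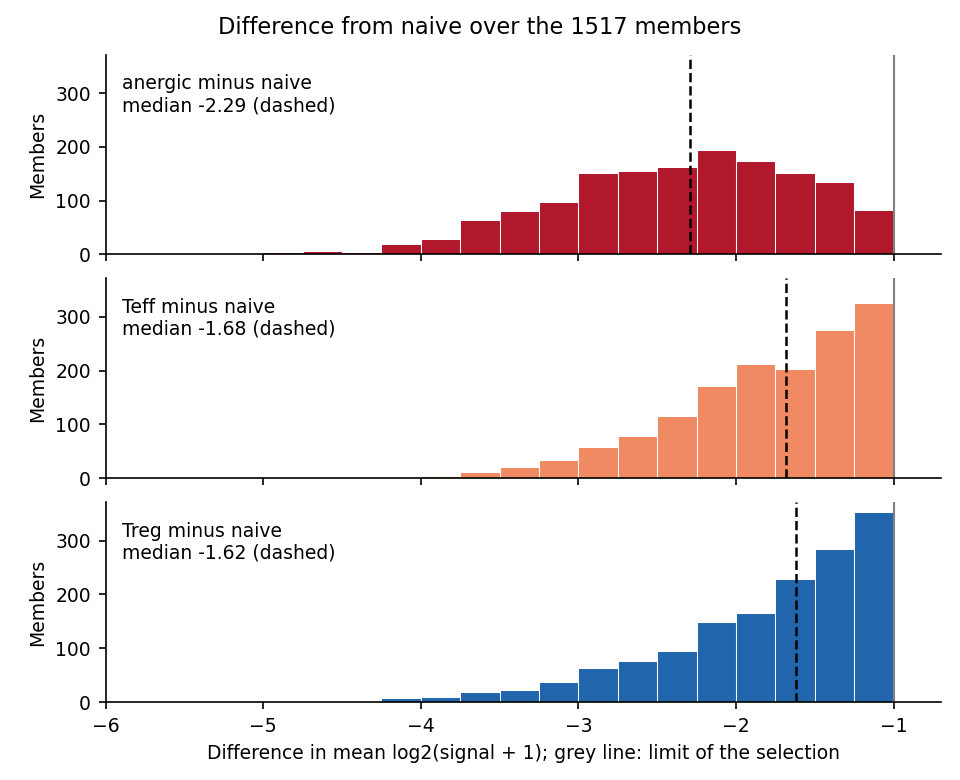
Number of members by difference from naive in mean log2(signal + 1), for anergic, Teff and Treg cells from top to bottom. Dashed lines are medians (-2.29, -1.68 and -1.62), and the grey line at -1 is the limit that the selection sets. The anergic differences reach further from the limit than the Teff and Treg differences.

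The selection was repeated on part of the libraries to see the same measure where it had not been used. The labels do not say whether replicates came from separate mice, and the peaks were merged over samples. The parts may therefore not be independent. Peaks chosen on the replicate 1 libraries of the 4 groups numbered 1595. In the replicate 2 libraries the closest other library minus naive had a median of -1.10 over these peaks, 56.9% were at or under -1 and 98.5% under 0. The reverse choice, on replicate 2, gave 1176 peaks, with a median of -1.46 in the replicate 1 libraries, 77.2% at or under -1 and 99.6% under 0. Over all peaks the median was 0.23 in both, 3.05% and 4.14% were at or under -1, and 34.2% and 35.1% were under 0. Leaving naive replicate 1 out of the rule kept 1347 peaks, of which 1227 were members, and leaving out naive replicate 2 kept 1784, of which 1438 were members.

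The members with the largest distance from naive, among those with a naive mean of at least 100 units, were mostly intronic or intergenic elements. The first was an intergenic peak 176 kb upstream of Ube2e1, which encodes a ubiquitin-conjugating enzyme (chr14:18507698-18507990). Its signal was 23.2, 20.6 and 6.05 units in anergic, 19.4, 9.91 and 36.7 in Teff and 13.5, 27.7 and 13.9 in Treg libraries, against 355 and 262 in naive libraries. An intronic peak of Zfp800, a zinc finger gene (chr6:28351001-28351493), had 41.4, 70.1 and 34.9 units in anergic, 53.3, 41.3 and 68.3 in Teff and 21.4, 55.3 and 16.5 in Treg libraries, against 1003 and 578 in naive libraries. Both peaks were low in all 9 libraries of the other groups, and no library of those groups reached the naive range. An intronic peak of Slc4a4, a bicarbonate transporter gene (chr5:89090226-89090527), followed with 5.37 to 43.1 units over the 9 other libraries, against 260 and 223 in naive libraries. All 4 Slc4a4 peaks in the table were members.

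Of the others among the 12, a peak 7.49 kb upstream of Slc16a1, which encodes the lactate transporter MCT1 (chr3:104631053-104631289), had 10.1 to 36.2 units over the 9 anergic, Teff and Treg libraries, against 240 and 201 in naive libraries. A Camkk2 intron, in the gene of a calcium-dependent kinase that activates AMPK (chr5:122745395-122745719), had 8.86 to 31.9 units in those 9 libraries, against 224 and 173 in naive libraries. A peak 4.97 kb into Mgme1, the gene of a mitochondrial DNA exonuclease (chr2:144275619-144276122), had 15.2 to 140 units, against 803 and 657 in naive libraries. The tallest of the group was an intergenic peak 75.1 kb upstream of Zswim2 (chr2:84015901-84016710), with 81.2 to 153 units in the 9 other libraries, against 1105 and 1166 in naive libraries. The remaining 5 peaks chosen for their distance lay near Slc47a2, Fbxo15, Mir3965 (in an intron of Gtf2ird1), Cox7a2l and Arhgef10l, with closest-group differences of -3.74 to -3.22. Contrasts between anergic, Teff and Treg cells were tested with limma, with p-values adjusted over all peaks, and a peak is called where its adjusted p is under 0.05. None of the 12 was called in any of the 3 contrasts, where 44.9% of all members were called in none. Of all peaks tested, 14.4% to 19.4% were called per contrast and direction. The 12 were picked by the group closest to naive, which makes all 3 other groups low at these peaks. Their lowest values come from few reads, and the standard errors of these contrasts ran up to 0.68.

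Lef1, which encodes a transcription factor of the TCF/LEF family, had the most members of any gene. Of the 49 peaks nearest to one of its starts, 22 were members, at 3.02 to 178 kb from the nearest of these starts. The median of log2(signal + 1) over these 22 peaks was 5.32 in anergic, 5.78 in Teff and 6.15 in Treg cells, against 7.93 in naive cells. The 27 other Lef1 peaks, including those at the start sites, had a median closest-group difference of -0.60, and 7 of them were at or above naive in at least 1 group. The Lef1 member furthest under naive lay in an intron, 11.6 kb downstream of the nearest Lef1 start (chr3:131167528-131168232, its centre printed above). It had 96.2, 55.4 and 45.7 units in anergic, 76.1, 135 and 220 in Teff and 140, 143 and 134 in Treg libraries, against 786 and 859 in naive libraries. The Treg libraries were close to each other, while anergic and Teff libraries overlapped and spread more widely. Its log2 fold change was -1.14 ± 0.30 for anergic over Treg (SE, adjusted p = 0.00561 in limma) and 0.08 ± 0.30 for Treg over Teff (adjusted p = 0.867 in limma). For anergic over Teff it was -1.06 ± 0.30 (adjusted p = 0.00841 in limma), a call that was lost without anergic replicate 3 (adjusted p = 0.0585 in limma) or without Teff replicate 3 (adjusted p = 0.0777 in limma).

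Satb1, the gene of a chromatin organiser of developing and naive T cells, had 11 members among 21 peaks. None of its 10 other peaks reached the naive mean in any group, so the whole locus leaned to naive cells. The intronic member 11.6 kb from the nearest Satb1 start (chr17:51800276-51800585, printed above) had 34.8, 49 and 30.9 units in anergic, 193, 95 and 78.3 in Teff and 121, 85.1 and 88.6 in Treg libraries, against 544 and 362 in naive libraries. All 3 anergic libraries were below all Teff and Treg libraries. Its signal was lower in anergic cells than in Teff cells (log2 fold change -1.56 ± 0.31, SE, adjusted p = 0.000352 in limma) and than in Treg cells (-1.35 ± 0.31, adjusted p = 0.00184 in limma). Of the 11 Satb1 members, 9 were called lower in anergic than in Teff cells, beside 29.6% of all members and 16.8% of all peaks. Likewise 9 were called lower in anergic than in Treg cells, beside 33.9% of all members and 14.8% of all peaks.

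**Figure D3:**
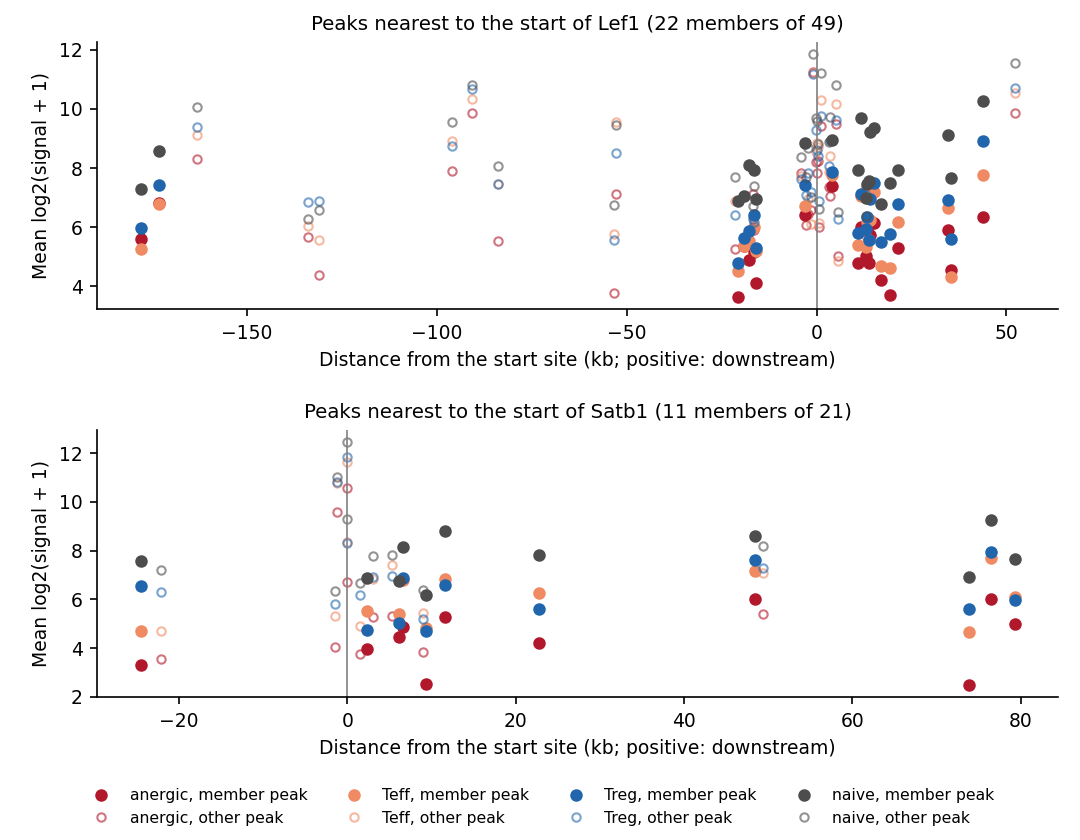
Mean log2(signal + 1) of each peak nearest to a start of Lef1 (top) and Satb1 (bottom), for anergic, Teff, Treg and naive cells. Distances in kb are from the nearest start of the gene. Each gene has several starts, so peaks far apart can share a position on the axis. Filled points are the 22 and 11 members, open points the 27 and 10 other peaks. The members lie away from the start sites, and at each of them the naive point is the highest.

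The other genes with many members differed in how their peaks were laid out. Dad1, an oligosaccharyltransferase subunit gene, is the neighbour of the T cell receptor alpha locus, and its 10 members of 54 peaks lay 106 to 544 kb downstream of its start, on the side of that locus. The one furthest under naive (chr14:53794579-53794888) had 23.2, 31.1 and 20.8 units in anergic, 11.1, 22.3 and 25 in Teff and 74.3, 83 and 119 in Treg libraries, against 354 and 393 in naive libraries. Every Treg library was above every anergic and Teff library, with a log2 fold change of 2.23 ± 0.35 for Treg over Teff (SE, adjusted p = 4.37e-05 in limma) and -1.83 ± 0.35 for anergic over Treg (adjusted p = 0.000397 in limma). All 6 peaks of Aox2, an aldehyde oxidase gene, were members, 18.2 to 37.4 kb from its start. Tbcel, Amigo2, Wwox and Foxp1 had 6 members each, of 11, 21, 27 and 56 peaks. The Wwox members clustered 376 to 441 kb into that long gene, and 5 of the 6 were called lower in anergic than in Treg cells, where 33.9% of all members and 14.8% of all peaks tested were. Over the whole set the 1516 members on chromosomes lay nearest to 1080 genes, 253 of them with at least 2 members, and 560 members (36.9%) had another member within 25 kb. No such share was computed for other sets of peaks, so whether members cluster more than other peaks was not tested.

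The gene lists below were written from general knowledge, with earlier results of these data known, and are described by counts. Of all 38441 peaks on chromosomes, 3.94% were members. Among 469 peaks of 23 transcription factors of naive T cells, 58 (12.4%) were members, spread over 11 genes: Lef1, Satb1, Foxp1, Bach2, Bcl9, Tcf7, Fli1, Runx1, Zeb1, Ikzf1 and Klf2. Lef1 and Satb1 held 33 of the 58, and the other factors had 25 members among 399 peaks (6.27%). The remaining 12 factors, among them Foxo1, Ets1, Bcl11b and Id3, had none. Of the 58 peaks, 23 were lower in anergic than in Teff cells and none higher, 36 were lower and 2 higher in anergic than in Treg cells, and 13 were higher and 2 lower in Treg than in Teff cells (limma, adjusted p under 0.05). Lef1 and Satb1 gave 13 of the 23 and 21 of the 36. Of all peaks tested, 15.9% were higher and 16.8% lower in anergic than in Teff cells. For anergic over Treg these shares were 19.4% and 14.8%, and for Treg over Teff 14.4% and 18.2%. Of all members, 0.791% were higher and 29.6% lower in anergic than in Teff cells. For anergic over Treg the member shares were 4.55% and 33.9%, and for Treg over Teff 11.4% and 12.4%. For Bach2, a repressor of effector programs, a member 110 kb upstream of the start (chr4:32307257-32307534) had 16.6, 11.6 and 4.03 units in anergic, 13.8, 27.3 and 25 in Teff and 60.8, 38.3 and 49.4 in Treg libraries, against 245 and 144 in naive libraries. The Treg libraries stood above all anergic and Teff libraries, and anergic over Treg gave -2.26 ± 0.48 (log2, SE, adjusted p = 0.0011 in limma). For Foxp1, a factor that keeps naive cells quiescent, an intronic member (chr6:99409768-99409960) had 24.9, 9.49 and 6.05 units in anergic, 1.38, 7.43 and 11.7 in Teff and 46.2, 29.8 and 36.7 in Treg libraries, against 119 and 140 in naive libraries. Its log2 fold change for Treg over Teff was 2.58 ± 0.64 (SE, adjusted p = 0.00339 in limma), on values of a few reads in Teff cells.

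Among surface and homing genes, members were about as frequent as elsewhere: 11 of 255 peaks (4.31%), at 7 of the 26 genes with a peak. The tallest was a wide intergenic peak 10.4 kb upstream of Cxcr4, the receptor for the chemokine CXCL12 (chr1:128602093-128603309). It had 252, 97 and 76.6 units in anergic, 152, 223 and 217 in Teff and 454, 479 and 481 in Treg libraries, against 2044 and 1589 in naive libraries. Treg libraries were uniformly higher than the anergic and Teff libraries, which overlapped. The log2 fold change was 1.27 ± 0.28 for Treg over Teff (SE, adjusted p = 0.0014 in limma) and -1.92 ± 0.28 for anergic over Treg (adjusted p = 2.08e-05 in limma). At Ccr7, the receptor that guides naive cells into lymph nodes, 1 of 18 peaks was a member, 18.5 kb downstream of the start (chr11:99136296-99136851). It had 219, 231 and 206 units in anergic, 360, 380 and 255 in Teff and 316, 366 and 349 in Treg libraries, against 1068 and 962 in naive libraries. It was lower in anergic than in Treg cells (log2 fold change -0.65 ± 0.16, SE, adjusted p = 0.00404 in limma). It was also lower in anergic than in Teff cells (-0.58 ± 0.16, adjusted p = 0.00833 in limma), though not without Teff replicate 2 (adjusted p = 0.0658 in limma). S1pr1, the receptor for exit from lymph nodes, had 3 members of 23 peaks.

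Other genes linked to naive and quiescent T cells held 36 members among 283 peaks (12.7%), at 16 genes, led by Amigo2, Tgfbr3, Als2cl and Rapgef4. The intronic Rapgef4 peak printed above, in the gene of the cyclic AMP sensor EPAC2, was small, with 5.06 to 34.1 units over the 9 anergic, Teff and Treg libraries, against 78 and 85.2 in naive libraries. The Dapl1 peak (chr2:59527726-59527999), 43.2 kb downstream of its start, had 6.05 to 43.3 units in the 9 other libraries, against 191 and 122 in naive libraries. At Tgfbr2, a receptor for TGF-β, which helps keep naive cells quiescent, an intronic member 73.3 kb from the start had 38.3 to 111 units in the 9 other libraries, against 536 and 272 in naive libraries. None of the 3 differed between anergic, Teff and Treg cells at adjusted p under 0.05 in limma.

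Genes of thymocytes and recent thymic emigrants had 5 members among 87 peaks (5.75%), at Arpp21, Dntt, Ly6d and St6gal1. At Dntt, which encodes the polymerase TdT that adds bases during receptor rearrangement, an intronic member (chr19:41039165-41039390) had 9.95, 19 and 16.1 units in anergic, 34.6, 29.7 and 40 in Teff and 48.4, 78.8 and 81 in Treg libraries, against 152 and 171 in naive libraries. The 4 groups did not overlap, in the order anergic, Teff, Treg, naive. Anergic over Treg gave -2.14 ± 0.37 (log2, SE, adjusted p = 0.00012 in limma). At Arpp21, a gene of immature thymocytes, an intronic member (chr9:112207892-112208151) had 16.8 to 44.3 units in anergic, 15.2 to 38.3 in Teff and 100 to 120 in Treg libraries, against 305 and 271 in naive libraries. It was higher in Treg than in Teff cells (log2 fold change 2.05 ± 0.37, SE, adjusted p = 0.000198 in limma).

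Members were also found at signalling genes, at shares close to or below that of all peaks. T cell receptor signalling genes had 12 of 335 peaks (3.58%), among them peaks of Prkcq, Ubash3b, Cd3e, Grap2 and Rasgrp1. At Prkcq, which encodes the kinase PKC-theta, a peak 12.5 kb upstream of the start (chr2:11159701-11160066) had 202, 260 and 232 units in anergic, 286, 254 and 208 in Teff and 173, 198 and 187 in Treg libraries, against 680 and 624 in naive libraries. All 3 Treg libraries were below all anergic and Teff libraries, which overlapped, but none of the 3 contrasts was called in limma (Treg over Teff -0.41 ± 0.17, log2, SE, adjusted p = 0.0727 in limma). Cytokine receptor and STAT genes had 3 of 183 peaks (1.64%). The taller Jak1 member, in an intron 90 kb from the start (chr4:101174901-101175632), had 174, 110 and 87.3 units in anergic, 283, 300 and 260 in Teff and 274, 300 and 256 in Treg libraries, against 814 and 800 in naive libraries. Teff and Treg libraries were alike and every anergic library was lower, with log2 fold changes of -1.23 ± 0.20 for anergic over Teff (SE, adjusted p = 5.06e-05 in limma) and -1.21 ± 0.20 for anergic over Treg (adjusted p = 9e-05 in limma).

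Activation, effector and regulatory genes had the lowest share of the T cell lists, 2 of 284 peaks (0.704%). Those were intergenic peaks upstream of Irf4 and of Nr4a1, a pair of genes induced by T cell receptor signals. The Irf4 peak (chr13:30733118-30733377) had 38.3 to 164 units over the 9 anergic, Teff and Treg libraries, against 268 and 268 in naive libraries. Genes of chromatin and DNA methylation had 11 of 152 peaks (7.24%), among them peaks of Tet1, Tet3, Chd7, Hdac4 and Tle4. All 4 peaks of Tet1, a DNA demethylase gene, were members. The member upstream of Tle4, a corepressor partner of TCF and LEF factors (chr19:14695017-14695927), was among the tallest named, with 370 to 585 units in anergic, 525 to 862 in Teff and 251 to 515 in Treg libraries, against 3274 and 2254 in naive libraries. It was lower in Treg than in Teff cells (log2 fold change -0.93 ± 0.23, SE, adjusted p = 0.00346 in limma). Housekeeping genes had 2 of 52 peaks (3.85%), both near Ywhaz, which encodes a 14-3-3 protein.

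The genes used in the sorting had 1 member among 49 peaks, a peak 7.99 kb upstream of Cd44 (chr2:102909516-102909790) with 35.5 to 91.7 units in the 9 other libraries, against 204 and 146 in naive libraries. Summed over their peaks, the identity genes followed the labels: Foxp3 had 96 to 184 units in anergic, 14 to 63 in Teff and 1118 to 1597 in Treg libraries, against 15 and 8 in naive libraries, and Nt5e, which encodes CD73, had 3052 to 3918 units in anergic, 2008 to 2288 in Teff and 2255 to 2674 in Treg libraries, against 1133 and 1205 in naive libraries. Markers of other cells were looked at in the same way. Of 16 B cell genes 5 had a peak, with Ms4a1, Cd79a and Pax5 among those without one. Their summed signal was 3917 to 4474 units in anergic, 1813 to 2033 in Teff and 1676 to 1820 in Treg libraries, against 2474 and 2747 in naive libraries. Of 16 CD8, NK and innate-like T cell genes 12 had a peak, without Cd8a and Ncr1, and the sums were 24872 to 30091 in anergic, 31470 to 36539 in Teff and 24377 to 29102 in Treg libraries, against 30020 and 30819 in naive libraries. Myeloid genes (9 of 18 with a peak, without Lyz2 and Csf1r) summed to 10300 to 10566 in anergic, 8964 to 10221 in Teff and 7718 to 8753 in Treg libraries, against 7420 and 7944 in naive libraries. Erythroid and platelet genes (4 of 12 with a peak, without the globin genes and Gata1) summed to 4697 to 5069 in anergic, 3749 to 3973 in Teff and 3389 to 3579 in Treg libraries, against 4280 and 4486 in naive libraries. These lists held 5 members in all, 3 of them near Prf1, the perforin gene, and the part of other cells in the members' signal was not tested. In sorted populations a lower signal in every cell and a smaller share of cells with the open site cannot be told apart.

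Among the 3 other groups, the members were lowest in anergic cells. The contrasts between these groups played no part in the choice of members, although the rule caps all 3 at least 1 log2 unit under naive. All 1517 members were tested, among 38493 peaks. Anergic over Teff gave 12 members higher (0.791%, where 15.9% of all peaks tested were) and 449 lower (29.6%, against 16.8% of all peaks), with a median log2 fold change of -0.55 over members and 0.00 over all peaks. Anergic over Treg gave 69 higher (4.55%, against 19.4% of all peaks) and 515 lower (33.9%, against 14.8%), with a median of -0.54 over members and 0.04 over all peaks. Treg over Teff gave 173 higher (11.4%, against 14.4%) and 188 lower (12.4%, against 18.2%), with a median of 0.01 over members and -0.02 over all peaks. The first 2 contrasts share the anergic libraries, so they are not separate evidence. The lowest of the 3 group means was the anergic one in 1030 members (67.9%), the Teff one in 167 and the Treg one in 320, and the highest was the anergic one in 116, the Teff one in 667 and the Treg one in 734. In 681 members (44.9%) none of the 3 contrasts was called.

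Several of these counts changed when single libraries were left out. The shares of all peaks called are given for the main fit only, so whether the changes are particular to members was not tested. The 449 members lower in anergic than in Teff cells became 298 without anergic replicate 3, the library with the lowest member median. The 12 higher became 7 without anergic replicate 2 and 20 without Teff replicate 3. The 173 higher in Treg than in Teff cells became 104 without Teff replicate 1, 109 without Teff replicate 2 and 103 without Treg replicate 2. Scaling by total reads in peaks shifted the all-peak median by -0.13 for anergic over Treg and by 0.10 for Treg over Teff. With it, 44 members were higher and 591 lower in anergic than in Treg cells, and 196 were higher and 148 lower in Treg than in Teff cells, so the balance of Treg against Teff depends on the scaling.

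**Figure D4:**
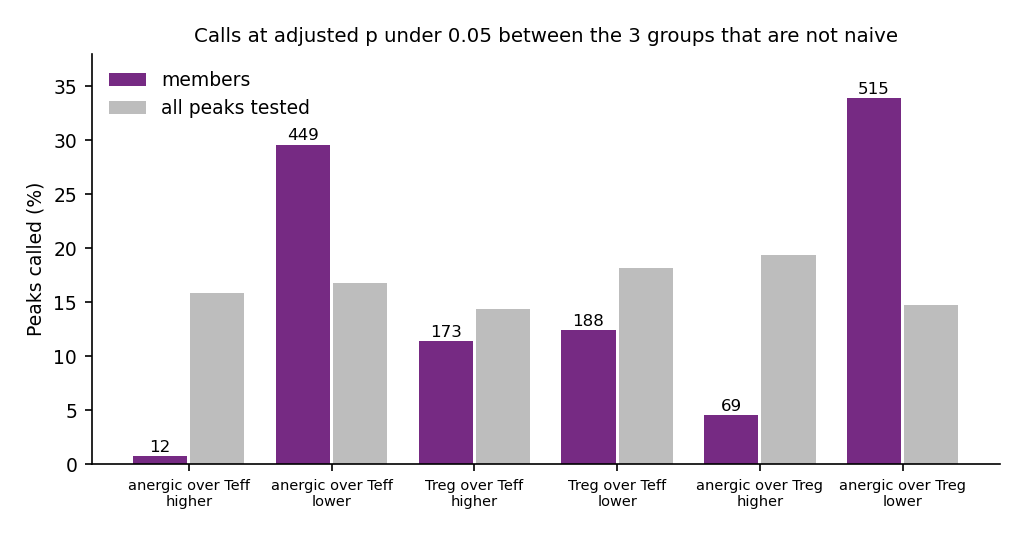
Percentage of peaks called at adjusted p under 0.05 in limma, for members (purple, with their number above the bar) and for all 38493 peaks tested (grey), in the 3 contrasts between anergic, Teff and Treg cells. Members were called lower in anergic cells at 29.6% and 33.9%, against 16.8% and 14.8% of all peaks, and higher in anergic cells at 0.791% and 4.55%, against 15.9% and 19.4%.

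The members that differed most between these groups, among those with no overlap of libraries and a mean of at least 50 units in the higher group, kept part of their signal in different groups. Near Prf1, a peak 8.52 kb downstream of the start (chr10:61306154-61306554) had 46.4, 31.1 and 34.3 units in anergic, 210, 197 and 210 in Teff and 68.7, 89.4 and 87.4 in Treg libraries, against 456 and 528 in naive libraries. It kept an intermediate level in Teff cells, and anergic over Teff gave -2.45 ± 0.23 (log2, SE, adjusted p = 4.27e-08 in limma). A coding exon peak of Kidins220, a scaffold protein gene (chr12:25013054-25013609), also kept signal in Teff cells, with 119, 122 and 100 units in anergic, 516, 356 and 277 in Teff and 100, 61.7 and 51.9 in Treg libraries, against 976 and 597 in naive libraries. Treg over Teff gave -2.42 ± 0.26 there (log2, SE, adjusted p = 3.2e-07 in limma). An intronic peak of Hspbap1, which encodes a protein that binds a small heat shock protein (chr16:35780813-35781414), had 28.2, 24.8 and 2.69 units in anergic, 53.3, 57 and 102 in Teff and 20.3, 70.2 and 11.4 in Treg libraries, against 526 and 540 in naive libraries. All anergic libraries were below all Teff libraries, but anergic over Teff (log2 fold change -2.29 ± 0.62, SE, adjusted p = 0.00646 in limma) was not called without anergic replicate 3 (-1.32, adjusted p = 0.0586 in limma) or with DESeq2 (adjusted p = 0.0639). An intronic peak of Polr1a, the gene of the large subunit of RNA polymerase I, had 4.97, 13.2 and 18.8 units in anergic, 81.7, 81.8 and 33.3 in Teff and 81.1, 57.5 and 3.8 in Treg libraries, against 203 and 104 in naive libraries. The Treg libraries ran across the whole range of the other 2 groups, and anergic over Teff (-2.38 ± 0.73, log2, SE, adjusted p = 0.015 in limma) was not called without anergic replicate 1, Teff replicate 1 or Teff replicate 2 (adjusted p = 0.074, 0.0545 and 0.0662 in limma).

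Other members kept signal in Treg cells. A peak 76.1 kb upstream of Slc25a33, the gene of a mitochondrial nucleotide carrier (chr4:149850057-149850579), had 29.8, 25.8 and 20.8 units in anergic, 47.1, 55.3 and 102 in Teff and 243, 275 and 374 in Treg libraries, against 925 and 792 in naive libraries. The 4 groups did not overlap, and anergic over Treg gave -3.48 ± 0.27 (log2, SE, adjusted p = 7.98e-09 in limma). A peak in an intron of Tmem123, nearest to the start of Mir5618 (chr9:7783683-7784189), had 14.9, 38.5 and 18.1 units in anergic, 60.9, 74.3 and 58.3 in Teff and 244, 268 and 219 in Treg libraries, against 570 and 479 in naive libraries. Anergic over Treg gave -3.41 ± 0.29 there (log2, SE, adjusted p = 2.16e-08 in limma). A peak nearest to Mir5127 had the same order of groups, with anergic over Treg at -3.34 ± 0.32 (log2, SE, adjusted p = 9.81e-08 in limma).

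Some members kept signal in anergic and Teff cells and were low in Treg cells. A peak 73.4 kb upstream of Hlf, a transcription factor gene of the PAR bZIP family (chr11:90464103-90464544), had 68, 186 and 95.4 units in anergic, 94.1, 105 and 110 in Teff and 6.76, 40.4 and 21.5 in Treg libraries, against 431 and 288 in naive libraries. Anergic over Treg gave 2.47 ± 0.44 (log2, SE, adjusted p = 0.00017 in limma). Intronic peaks of Nav2 (chr7:49421304-49421613) and Padi1 (chr4:140832926-140833114) were alike, with anergic over Treg at 2.39 ± 0.47 for Nav2 (log2, SE, adjusted p = 0.000487 in limma) and at 2.33 ± 0.49 for Padi1 (adjusted p = 0.000957 in limma). The members higher in anergic than in Teff cells were few and small in effect. An intronic peak of Fam110b led them, with 73, 73.3 and 45.7 units in anergic, 24.2, 36.3 and 31.7 in Teff and 92.3, 53.2 and 92.4 in Treg libraries, against 173 and 152 in naive libraries. Its anergic over Teff fold change of 1.02 ± 0.32 (log2, SE, adjusted p = 0.016 in limma) was not called without anergic replicate 1, without anergic replicate 2 or without Teff replicate 1 (adjusted p = 0.0572, 0.0648 and 0.0699 in limma).

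Members were distal elements. A promoter peak is one whose centre lies within 1000 bases of a RefSeq start site, and 63 members (4.16%) were promoters, beside 33.2% of all peaks. Of the members on chromosomes, 52.7% had their centre in an intron and 41.4% between genes, beside 43.2% and 38.6% of all peaks. Only 2.77% were in coding exons and 1.19% in 5′ UTRs, beside 5.5% and 10.1% of all peaks. The median distance to a start site was 21.7 kb, beside 5.61 kb for all peaks, and 8.84% lay over 100 kb away, beside 4.21%. Members were also narrower, with a median width of 295 bases beside 369. The same rule with another group in the place of naive gave 1788 anergic, 847 Teff and 202 Treg peaks, and 6.6%, 6.49% and 6.63% of those on chromosomes were promoters. Their median widths were 345, 323 and 262 bases, and their median distances to a start site 23.2, 16.5 and 18.2 kb. A low promoter share, a smaller width and a larger distance than in all peaks were thus common to all 4 sets. All of these sets were chosen on large differences, and no test was made.

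Among the promoter members, 5 are described as examples, picked after their values were seen. The promoter of Adamts14, a metalloprotease gene (chr10:61273148-61273634, centre in the 5′ UTR), had 76.3, 34.3 and 24.9 units in anergic, 68.5, 91.7 and 98.3 in Teff and 68.7, 179 and 79.8 in Treg libraries, against 424 and 508 in naive libraries. That of Auts2, a regulator of chromatin (chr5:132543144-132543866), had 15.8 to 143 units in the 9 other libraries, against 445 and 451 in naive libraries. For Clasp2, a microtubule-binding protein gene (chr9:113792608-113792922), the 9 other libraries had 63.1 to 146 units, against 571 and 403 in naive libraries. Promoters of Gria3 and Fam240a had 43 to 148 and 67.2 to 157 units in the 9 other libraries, against 477 and 437 units for Gria3 and 553 and 506 units for Fam240a in naive libraries. No library of the other groups reached a naive library at any of the 5.

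Base composition and exact motif letters were counted in the central 200 bases of each peak, on both strands, in distal peaks only, so that promoters did not set the difference. The 1453 distal members had a median GC content of 49%, beside 50% for all 25675 distal peaks. TCF/LEF letters were in 19.8% of distal members, beside 9.79% of all distal peaks. In the distal peaks chosen by the same rule for the other groups they were in 13.4% for anergic, 7.7% for Teff and 9.84% for Treg. RUNX letters were in 17.7% of distal members, beside 11.5% of all distal peaks, and ETS letters in 15%, beside 10.9%. The Teff set had these at similar shares, 21.7% for RUNX and 14.1% for ETS. At least 1 of the 3 motifs was in 666 distal members (45.8%), beside 28.9% of all distal peaks, and at least 2 of the 3 in 93 (6.4%), beside 3.19%. These are the letters in capitals in the Satb1, Cxcr4, Ccr7 and Rapgef4 sequences above.

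Letters of factors downstream of antigen receptor signals had lower shares in members than in all distal peaks. AP-1 letters (TGANTCA) were in 5.3% of distal members, beside 11.7% of all distal peaks and 32.9% of the distal anergic set. The distal Teff set had 8.46% and the distal Treg set 14.8%. NFAT letters (TGGAAA) were in 10.5%, beside 17.8% of all distal peaks and 42.4% of the distal anergic set. The distal Teff and Treg sets had 13.1% each, so they too were under all distal peaks. NF-kB letters (GGGANNTTC) were in 2.06%, beside 3.22%, and NR4A letters (AAAGGTCA, which share AGGTCA with the ROR letters TAGGTCA) in 0.344%, beside 1.14%. E protein letters (CAGCTG or CAGGTG) were in 31.4%, beside 28.8%. FOXO letters (GTAAACA) were in 3.72%, beside 3.4%, and KLF letters (CCNCNCCC) in 28%, beside 28.3%. GATA letters (AGATAA) were in 9.5%, beside 9.27%, and STAT letters (TTCNNNGAA) in 5.71%, beside 5.78%, so these 4 stood near the level of all distal peaks. Of the other motifs searched, T-box letters (GGTGTGA) were in 2.96% of distal members, beside 4.23% of all distal peaks and 17% of the distal Teff set. GC box letters (GGGCGG) were in 6.19%, beside 11%, and CTCF letters (AGNNGGCA) in 20.2%, beside 21.7%. A match says only that the letters are present, and the peaks of these sets were chosen by their signal, so the shares carry no test.

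**Figure D5:**
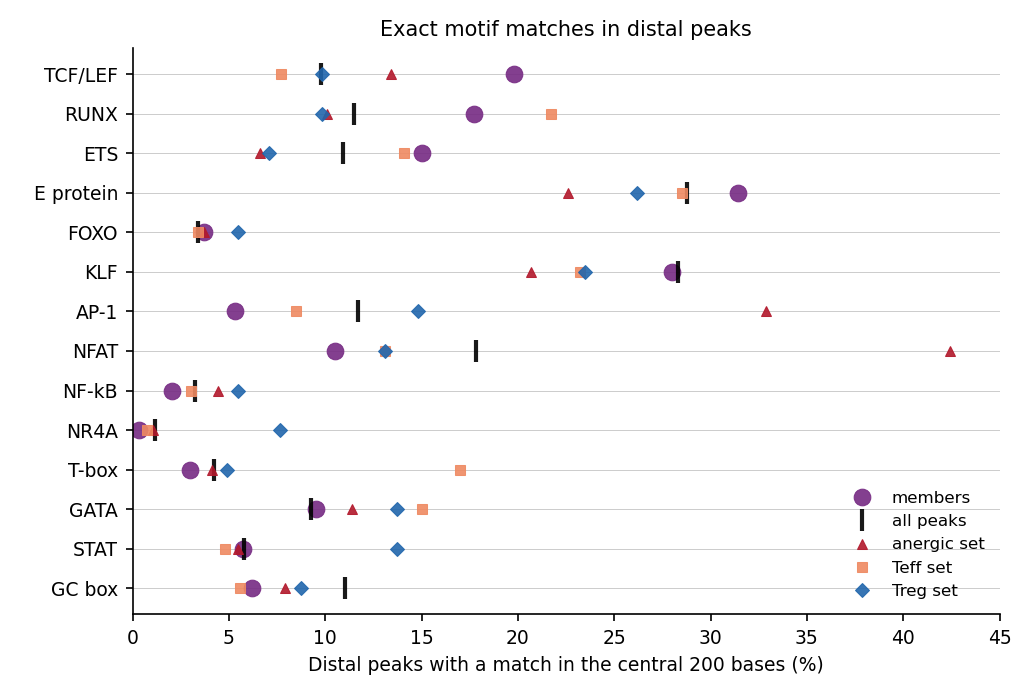
Percentage of distal peaks with an exact match in their central 200 bases for 14 of the 19 motifs searched. Purple circles are the 1453 distal members, black ticks all 25675 distal peaks, and the other points the distal peaks chosen by the same rule for anergic, Teff and Treg cells. Members stand right of all peaks for TCF/LEF (19.8% beside 9.79%), RUNX and ETS and left of them for AP-1 (5.3% beside 11.7%) and NFAT. The Teff set also stands left of all peaks for AP-1 and NFAT, and the Treg set for NFAT.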

How the data were processed

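ATAC-seq signal per consensus peak was analysed in 11 libraries of CD4 T cells. Per the series' design text, the authors trimmed reads with Trimmomatic 0.38.1, aligned them to mm10 with Bowtie2 2.3.3.1, sorted with SAMtools 1.13, called peaks per sample with Genrich 0.5, which removed PCR duplicates and adjusted for transposase cut sites, and merged them with DiffBind 2.10.0. The deposited signal values are not whole, but 100.0% of them are whole multiples of the smallest value of their library within 0.01, so the authors' signal was read as reads times a library factor whose method is not given in the sources used here. Starts in the table count from 0, as a contig peak with start 0 shows, and 1 was added to each.

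From there, the selection was applied and limma-trend (limma 3.58.1, R 4.3.3) was fitted to log2(signal + 1) over 38493 peaks, using the 4 groups as the model and every library, so that they share an estimate of the spread. Before the fit, filterByExpr of edgeR 4.0.16, run on the recovered reads, took out 16 peaks. All members passed this filter. P-values were adjusted by Benjamini-Hochberg over all peaks tested, with a threshold of 0.05, and the fit was tested on simulated data. Fold changes on this scale understate changes of low peaks. Peaks were given to the nearest of 45755 RefSeq transcript starts (GRCm38), and sequences were read from the same genome. A gene named for a peak is only the nearest start. Distances are from that start, and a gene can have several starts. The members, gene lists and motifs were chosen with earlier results of these data known. Named peaks follow a rule: the 12 furthest under naive with a naive mean of at least 100 units, the 8 genes with most members, up to 3 per gene list, the 3 highest and 3 lowest called per contrast, and 2 on each side of the limit. Predicted genes were left out of all of these except the picks from the gene lists. Alternatives were other pseudocounts, filters, scalings and tools (edgeR, DESeq2 1.42.0), a replicate block, fits of only the groups compared, and leaving out each library.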

Additional observations from a re-analysis of the deposited data

How the results depend on the processing

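Leaving out each library in turn gave 7 to 20 members higher and 298 to 538 lower in anergic than in Teff cells, 103 to 194 higher and 137 to 207 lower in Treg than in Teff cells, and 46 to 82 higher and 358 to 604 lower in anergic than in Treg cells. The number of members ran between 1347 and 1784 in these settings. DESeq2 called 19 members higher in anergic than in Teff cells, and scaling by total reads in peaks called 44 higher in anergic than in Treg cells. A limit of 1.5 log2 units kept 585 members, total scaling 1209, TMM 1395 and a pseudocount of 8 1376. The cause of these shifts was not tested. The shares of all peaks called are given for the main fit only, so a shift may not be particular to members. Members lower in anergic cells outnumbered those higher in every setting run. With the replicate number as a block, 18 members were higher and 478 lower in anergic than in Teff cells, 188 and 202 in Treg than in Teff cells, and 74 and 536 in anergic than in Treg cells. The correlations of deviations between libraries with the same number had mixed signs, between -0.114 and 0.155. The labels do not say what the number marks, and it was not used as a pairing. Over 66 named peaks and 3 contrasts, 3561 comparisons with alternatives gave 3363 with the same call, 118 with a call lost, 80 with a call gained and 0 with the sign of a called value reversed. Low peaks limit precision: 1 read is worth up to 2.13 units, and the naive group has 2 libraries.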
